A study of Mus musculus with 16 samples.

Results

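Haematopoietic stem cells sit at the top of blood formation and make up a small share of bone marrow cells. In mouse marrow they are commonly recognised by surface proteins. They carry CD150, a receptor of the SLAM family, and Sca-1, a GPI-anchored protein of stem and multipotent cells, and they lack CD48, another SLAM family protein that appears as cells leave the stem cell state. CpG methylation is a covalent mark on DNA that is copied at cell division, and its pattern shifts as stem cells give rise to blood lineages. The cells described here are bone marrow cells with high CD150, high Sca-1 and low CD48 for their library, and the question was whether they differ in CpG methylation from the other cells of the same library.

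The data came from scTAM-seq, a method in which a restriction enzyme cuts unmethylated copies of a CpG before targeted amplification, so that a read of an amplicon in a cell marks a methylated CpG. Each of 663 amplicons counted as methylated in a cell once 1 read of it was seen there. A missing read can come from an unmethylated CpG or from failed amplification. Antibodies with DNA tags were counted in the same cells as unique molecular identifiers (UMIs). The amplicons are known only by the identifiers of the panel, which the files used here pair with no gene, position or sequence.

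The 4 bone marrow libraries with suitable tags were used: mouse 3 and mouse 4 of the LARRY main experiment, mouse 1 of the LARRY replicate experiment and the native hematopoiesis library. LARRY is a lentiviral library of expressed barcodes used to mark clones, and the native library is labelled without it. The labels call all of these bone marrow immune cells. The labels give no strain, age, sex or sort, and no number of animals behind the native library. The libraries were treated as the replicates. The main test combined counting error with a spread between libraries that it pooled over amplicons. Its p-values therefore do not measure the spread of a single amplicon alone.

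A cell was eligible with at least 100 tag UMIs. The natural log of (UMI + 1) was taken for each tag and centred on the cell's mean over all its tags. A cell was chosen when its centred values fell in the top 25% for CD150, the top 25% for Sca-1 and the lower 50% for CD48 among the eligible cells of its library. These cells are called CD150-high Sca-1-high cells below. They numbered 546 of 9715 eligible cells (5.62%), out of 21441 cells in the 4 libraries and 95930 in all 16 libraries of the series. There were 97 of 2675 eligible cells in main mouse 3 (3.63%), 43 of 1342 in main mouse 4 (3.20%), 210 of 3103 in replicate mouse 1 (6.77%) and 196 of 2595 in the native library (7.55%). Pairs of libraries shared between 5 and 24 cell barcodes, none of them between CD150-high Sca-1-high cells.

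The 2 cell groups were close in most measures of depth, with exceptions in main mouse 4 and in the tag counts. Median reads per cell in CD150-high Sca-1-high and other cells were 44198 and 45914.5 in main mouse 3, 57322 and 36134 in main mouse 4, 64264.5 and 68398 in replicate mouse 1, and 51281 and 60596 in the native library. The mean share of amplicons that are read in nearly every cell of every library lay between 96.5% and 98.7% in the chosen cells and between 97.1% and 99.1% in the others. Median tag UMIs were 245 against 215 and 230 against 212 in main mice 3 and 4, but 508.5 against 289 in replicate mouse 1 and 431 against 179 in the native library.

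The gates set the levels of 3 proteins, which are given as a description. Median CD150 UMIs were 7 in the chosen cells and 1 in the others of main mouse 3, 8 and 2 in main mouse 4, 26 and 2 in replicate mouse 1, and 122 and 3 in the native library. Median Sca-1 UMIs were 11 and 2, 9 and 2, 15 and 1, and 25 and 1 in the same order. Median CD48 UMIs were 15 against 41, 19 against 39 and 12 against 71 in the 3 LARRY libraries. In the native library they were 238 against 142, so there the chosen cells carried more CD48 tag than the others. Only 4 tags were counted in the native library (CD150, Sca-1, CD48 and c-Kit), against 19 or 20 in the others. CD48 there was low only relative to the cell's other tags. It was low against the mean of those 4 and as a share of the cell's tag UMIs (median 55.1% against 81.7%). In UMIs the native members therefore go against a CD48-low stem cell label, and results are given with and without them. At the edge of the gates, the lowest centred CD150 value above the threshold in main mouse 3 was -0.290022 and the highest below was -0.290506. In the native library these were -0.676549 and -0.681903, so no gap separates members from the rest.

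The remaining tags share the centring with the gates and were not tested. ESAM, an adhesion molecule of stem and endothelial cells, was higher in all 3 libraries that counted it, with median UMIs of 5 against 2, 7 against 3 and 14.5 against 2. CD201 (EPCR), a marker of long-term stem cells, had a median of 3 UMIs in the chosen cells of replicate mouse 1 against 0 in the others, and medians of 0 and 1 in the chosen cells of main mice 3 and 4 against 0. After centring, CD201 was lower in the chosen cells of main mouse 3 (-1.253 against -1.225) and higher in main mouse 4 and replicate mouse 1. The stem cell factor receptor c-Kit was lower after centring in 4 of 4 libraries, with median UMIs of 16 against 18, 15 against 17, 22.5 against 26, and 36 against 26 in the native library. CD27, of stem and multipotent cells, was lower after centring in all 3 LARRY libraries (0.575 against 0.649, 0.031 against 0.282 and 0.766 against 0.793). CD34, on the same marker list, was lower after centring in main mouse 3 (-0.315 against -0.044) and replicate mouse 1 (-0.930 against -0.241). It was higher in main mouse 4 (0.237 against 0.146). The megakaryocyte proteins CD41 and CD61 had higher median UMIs in all 3 LARRY libraries, at 4 against 2, 5 against 3 and 18.5 against 4 for CD41 and at 5 against 4, 9 against 6 and 20.5 against 5 for CD61. CD9, also carried by megakaryocytes, was at 13 against 7, 12 against 11 and 42.5 against 15, and the integrin CD49f at 74 against 56, 46 against 46 and 201.5 against 58. After centring, CD9 and CD49f were lower in the chosen cells of main mouse 4 and higher in the other two LARRY libraries. The gap was widest in replicate mouse 1 for each of these 4 proteins. Median UMIs of the other lineage markers were at most 3 in every LARRY library that counted them in the chosen cells for Ter-119 (erythroid), FceRIa (mast cell), CD115 and CD16/32 (myeloid), CD135 and CD127 (multipotent and lymphoid), and 3 or 4 for CD90 (T cell and some stem cells). The MHC class II tag I-A/I-E had medians of 23, 20 and 26 UMIs against 16, 14 and 14. After centring it was higher in main mouse 3 (1.404 against 1.195) and lower in main mouse 4 (0.754 against 0.978). It was nearly equal in replicate mouse 1 (0.950 against 0.944). Its part in the methylation results was not tested.

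**Figure D1:**
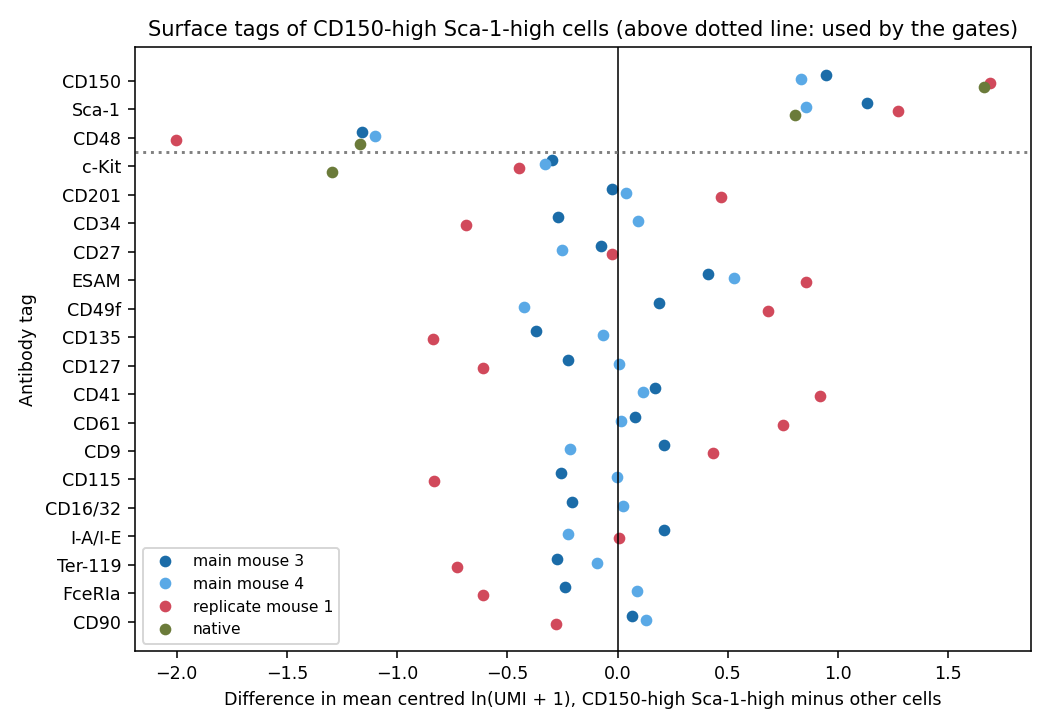
Difference in mean centred ln(UMI + 1) between CD150-high Sca-1-high and other cells for each antibody tag, 1 point per library. The top 3 tags were used by the gates. ESAM lies to the right of 0 in all 3 libraries that counted it, c-Kit lies to the left in all 4, and replicate mouse 1 shows the widest spread.

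Methylation differed between the CD150-high Sca-1-high cells and the other cells at a minority of CpGs, mostly towards more methylation in the chosen cells. The share of cells with a read was compared in 595 amplicons by edgeR's quasi-likelihood test, which took how many cells of each group had the amplicon and how many lacked it, and kept the library as a block. Differences are natural log odds, where 0 is no difference. At a Benjamini-Hochberg adjusted p of 0.05, 77 amplicons differed (12.9% of those tested), of which 60 were methylated in more of the chosen cells (10.1%) and 17 in fewer (2.86%). The median difference was 1.16 log odds over the 60 and -0.88 over the 17, against -0.01 over all amplicons tested. Averaged over libraries, the median of the 60 was 46.8% of the chosen cells and 19.1% of the others. For the 17 it was 59.1% and 74.9%.

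The calls depended on which libraries entered the fit and on the UMI minimum. Without main mouse 3 or without main mouse 4, edgeR called 0 amplicons, with 113 and 131 at an unadjusted p under 0.05, and it also called 0 with no minimum of tag UMIs (118 at an unadjusted p under 0.05). Without the library block it called 0 as well (64 at an unadjusted p under 0.05), and limma with the block called 32 higher and 11 lower. All 60 and all 17 kept their fitted direction in each of these settings, which reuse the cells of the calls and so give no separate support. Without the native library, whose chosen cells were not low in CD48 UMIs, 108 amplicons were higher (18% of 600) and 33 lower (5.5%).

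The direction was shared by the libraries, but its size was not. All 60 amplicons were higher in the chosen cells in each of 4 libraries, and 16 of the 17 were lower in each, while 21.2% of tested amplicons were higher and 14.5% lower in 4 of 4. The calls were made on these same libraries by a test that favours a shared sign. The agreement thus follows in part from the choice and is given as a description. The median difference of the 60 was 23.0 percentage points in main mouse 3, 21.4 in main mouse 4 and 40.2 in replicate mouse 1, and 5.50 in the native library. For the 17 it was -14.4, -10.1, -28.7 and -10.4 points. An interaction of the native library with the cell group, added after the data were seen, was called by edgeR in 0 of 595 amplicons (0%), with 81 at an unadjusted p under 0.05 and a smallest adjusted p of 0.0734. The effect was smaller in the native library for 59 of the 60. These were called as higher in a fit in which all libraries but the native one were LARRY. The count thus follows in part from the choice and is given as a description. The native library also had another tag panel and chosen cells with more CD48 UMIs, so the library and the makeup of its gate cannot be told apart.

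**Figure D2:**
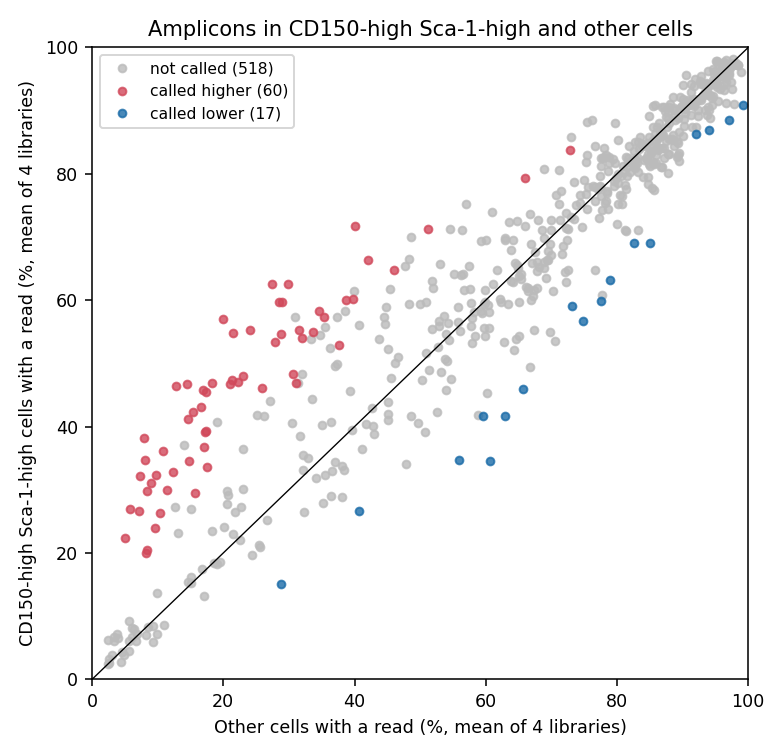
Share of CD150-high Sca-1-high cells with a read against the share of other cells with a read, as the mean of 4 libraries in percent, 1 point per amplicon tested. The 60 amplicons called higher lie above the diagonal, most of them at the left, and the 17 called lower lie below it.

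The amplicons methylated in more of the chosen cells were mostly ones that few other cells carried. Of 89 amplicons read in under 25% of the other cells, 37 were called higher (41.6%) and 0 lower. Of 232 amplicons between 25% and 75%, 23 were called higher and 9 lower. Of 274 amplicons at 75% or more, 0 were called higher and 8 lower. The direction of a call therefore followed the starting level, and the room to move differs between these classes.

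The amplicon with the largest increase was AMPL365990. It was read in 39.2% of 97 chosen cells in main mouse 3, 32.6% of 43 in main mouse 4, 76.2% of 210 in replicate mouse 1 and 4.59% of 196 in the native library. The other cells of these libraries were at 8.81%, 8.01%, 12.3% and 2.58%. The mean was 38.1% ± 29.5 (SD, n = 4) in the chosen cells and 7.93% ± 4.03 in the others, a difference of 1.95 log odds with a standard error of 0.36 (edgeR, adjusted p = 0.0232). The exact binomial 95% interval of the chosen cells ran from 29.4% to 49.6% in main mouse 3 and from 19.1% to 48.5% in main mouse 4, clear of the other cells. In the native library it ran from 2.12% to 8.54%, which overlaps the interval of the other cells, 1.99% to 3.30%. Such intervals cover counting error only. The difference thus stood clear of counting error in the LARRY libraries and was not detectable at this depth in the native one.

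The same shape held for the next amplicons. AMPL366093 was read in 45.4%, 46.5%, 83.8% and 9.69% of the chosen cells of main mouse 3, main mouse 4, replicate mouse 1 and the native library, and in 13.6%, 12.4%, 19.5% and 5.75% of the others (1.81 log odds, adjusted p = 0.0264 in edgeR). AMPL365902 was read in 30.9%, 34.9%, 69.0% and 4.08% against 7.29%, 7.24%, 15.5% and 2.17% (1.79 log odds, adjusted p = 0.0219). AMPL371288 was read in 29.9%, 18.6%, 52.4% and 7.14% against 6.83%, 6.24%, 7.71% and 2.38% (1.77 log odds, adjusted p = 0.0219). In all of these the LARRY libraries held the high values, replicate mouse 1 the highest. Every library moved the same way, as was required for an amplicon to be named.

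AMPL355412 started from a higher level. Its chosen cells were at 67.0%, 58.1%, 84.3% and 18.4% and its other cells at 22.7%, 22.1%, 24.9% and 10.3% (1.75 log odds, adjusted p = 0.0232 in edgeR). In the LARRY libraries it was thus methylated in most of the chosen cells. The other amplicons named by the same rule were AMPL366066, AMPL355877, AMPL371668, AMPL355767 and AMPL371197, with differences from 1.58 to 1.70 log odds. AMPL371197 reached 95.7% of the chosen cells of replicate mouse 1 against 40.6% of the others, the highest share of the 10, and 17.9% against 12.6% in the native library. AMPL371668 had the largest gap of the 10 in the native library, at 32.7% against 16.5%.

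Among the amplicons methylated in fewer of the chosen cells, AMPL376501 stood out because it was read in nearly all other cells. Its share was 88.7%, 90.7%, 84.8% and 99.5% of the chosen cells in main mouse 3, main mouse 4, replicate mouse 1 and the native library, against 98.8%, 98.6%, 99.3% and 99.9% of the others (-2.55 log odds, standard error 0.31, adjusted p = 0.0202 in edgeR). In counts, 178 of 210 chosen cells of replicate mouse 1 had a read of it, against 2874 of 2893 others, and in the native library 195 of 196 chosen cells had one. The mean share of the amplicons read in nearly every cell was 98.4% and 99.0% in the chosen and other cells of replicate mouse 1. With a call at 10 or more reads the difference of AMPL376501 was -1.31 and no longer passed the test (adjusted p = 0.0901 in edgeR).

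AMPL371420 had the largest drop in percentage points of the 10 named. It was read in 22.7%, 37.2%, 13.8% and 64.3% of the chosen cells against 55.2%, 57.6%, 53.9% and 75.6% of the others (-1.20 log odds, adjusted p = 0.0277 in edgeR). Within each library the chosen cells were lower, although those of the native library lay above the other cells of every LARRY library. The remaining 8 were AMPL366009, AMPL365750, AMPL366221, AMPL388788, AMPL366126, AMPL366082, AMPL365894 and AMPL371265, with differences from -0.95 to -0.83 log odds. AMPL366009 was uneven, at 34.0% against 62.5% in main mouse 3 but 60.5% against 63.9% in main mouse 4.

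**Figure D3:**
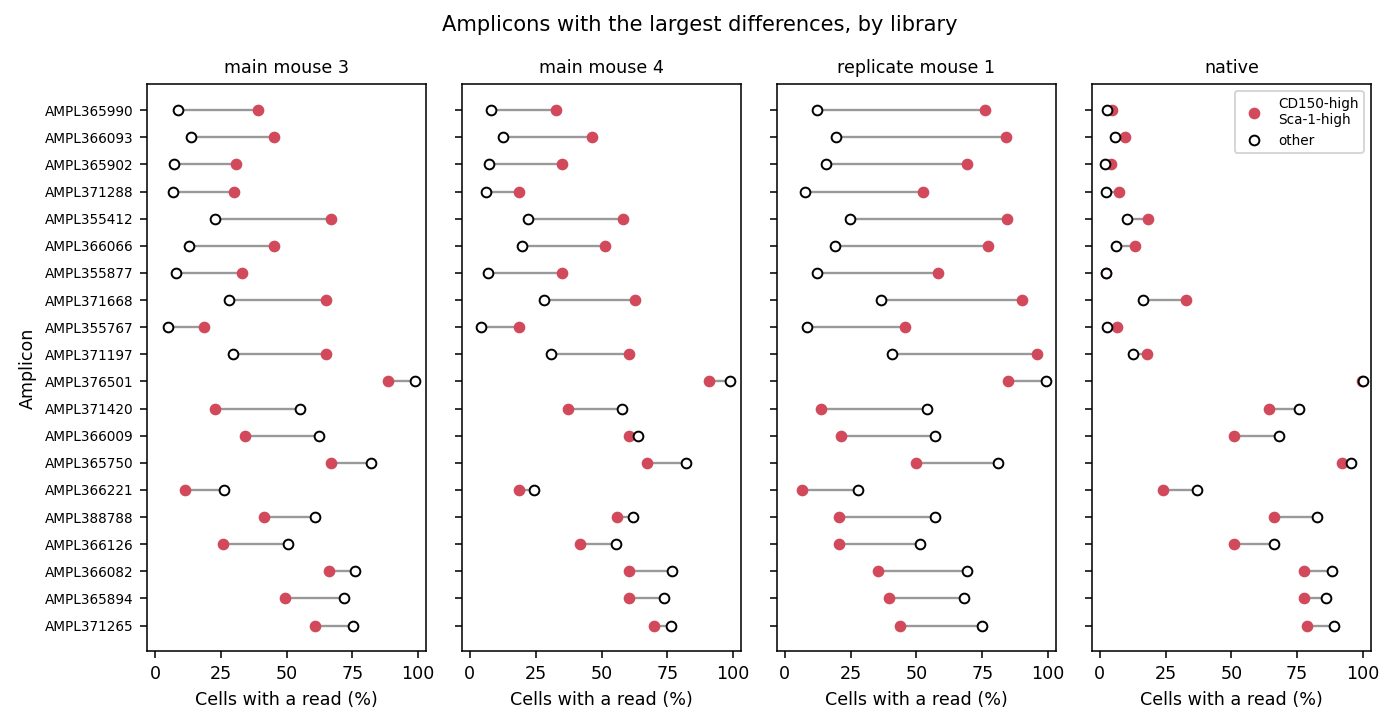
Share of cells with a read in percent for the 10 amplicons with the largest increase and the 10 with the largest decrease among those called, in CD150-high Sca-1-high (filled) and other cells (open), 1 panel per library. AMPL365990 is at 76.2% against 12.3% in replicate mouse 1 and at 4.59% against 2.58% in the native library, and AMPL366009 is at 60.5% against 63.9% in main mouse 4.

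Per cell, the chosen cells carried more of the 60 CpGs, with an overlap that differed between libraries. The median chosen cell had a read at 43.3%, 40%, 71.7% and 20% of the 60 in main mouse 3, main mouse 4, replicate mouse 1 and the native library, and the median other cell at 20%, 20%, 23.3% and 15%. Since the 60 were called on these cells, these values describe the calls and support nothing further. Of the other cells, 9.46%, 13.1% and 4.80% in the LARRY libraries reached the median of the chosen cells, and 33.8% in the native library.

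Calls made without a library were then looked up in that library, a check chosen after the data were seen. The 47 amplicons called higher without replicate mouse 1 (7.85% of 599) were all higher there, by a median of 41.9 percentage points, against 52.1% of all amplicons tested. The 13 called lower (2.17%) were all lower there, against 47.9% of all amplicons tested. Of the 108 called higher without the native library, 87 were higher in it (80.6%, against 39.2% of all 600), by a median of 4.24 points. Of the 33 called lower, 26 were lower in it (78.8%, against 60.7%). The direction carried over to the left-out library in both of these cases, with a small size in the native one. Without main mouse 3 or without main mouse 4 there were 0 calls, so nothing could be looked up in those libraries.

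Each gate was then relaxed alone, to compare the chosen cells with cells that missed only 1 criterion. There were 97 cells that missed only the CD48 gate, 1018 that missed only the CD150 gate and 1158 that missed only the Sca-1 gate. By edgeR at an adjusted p of 0.05, 55 amplicons differed from cells missing the CD48 gate (9.29% of 592), 49 of them higher (8.28%) and 6 lower (1.01%) in the chosen cells. Against cells missing the CD150 gate 42 differed (6.99% of 601), 25 higher (4.16%) and 17 lower (2.83%). Against cells missing the Sca-1 gate 50 differed (8.36% of 598), 46 higher (7.69%) and 4 lower (0.669%). These comparisons share the chosen cells with the comparison above, so they are set side by side and not used to support it. limma, the other tool run, called 0, 0 and 17 amplicons in these 3 comparisons (112, 96 and 108 at an unadjusted p under 0.05). Leaving out 1 library also ended calls: without main mouse 3 or main mouse 4 edgeR called 0 against cells missing the CD150 gate (73 and 84 at an unadjusted p under 0.05), without main mouse 4 it called 0 against cells missing the Sca-1 gate (98), and without replicate mouse 1 it called 17, 5 and 24 in the 3 comparisons.

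The 60 amplicons fell between the chosen and the other cells in most of these neighbours. Their median share in cells missing the CD150 gate was 30.5%, 35.2%, 38.9% and 22.3% in main mouse 3, main mouse 4, replicate mouse 1 and the native library, and in cells missing the Sca-1 gate 28.4%, 26.0%, 38.6% and 17.3%. Cells missing only the CD48 gate were at 26.8%, 16.7%, 30.8% and 11.1%, the last from only 9 cells. The chosen cells were at 45.4%, 47.7%, 70.2% and 19.1%, and all other cells at 19.2%, 19.9%, 24.3% and 12.7%. In the native library the cells missing the CD150 gate thus lay above the chosen cells. Cells missing only the CD48 gate lay below all other cells in main mouse 4 (16.7% against 19.9%) and in the native library (11.1% against 12.7%). The 60 were called as higher in these same chosen cells, so the place of the chosen cells above the neighbours follows in part from the choice. The 17 amplicons behaved unlike the 60 towards Sca-1. Their median log odds was -0.80 against cells missing the CD48 gate, -0.79 against cells missing the CD150 gate and -0.02 against cells missing the Sca-1 gate, where 7 of the 17 were above 0.

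**Figure D4:**
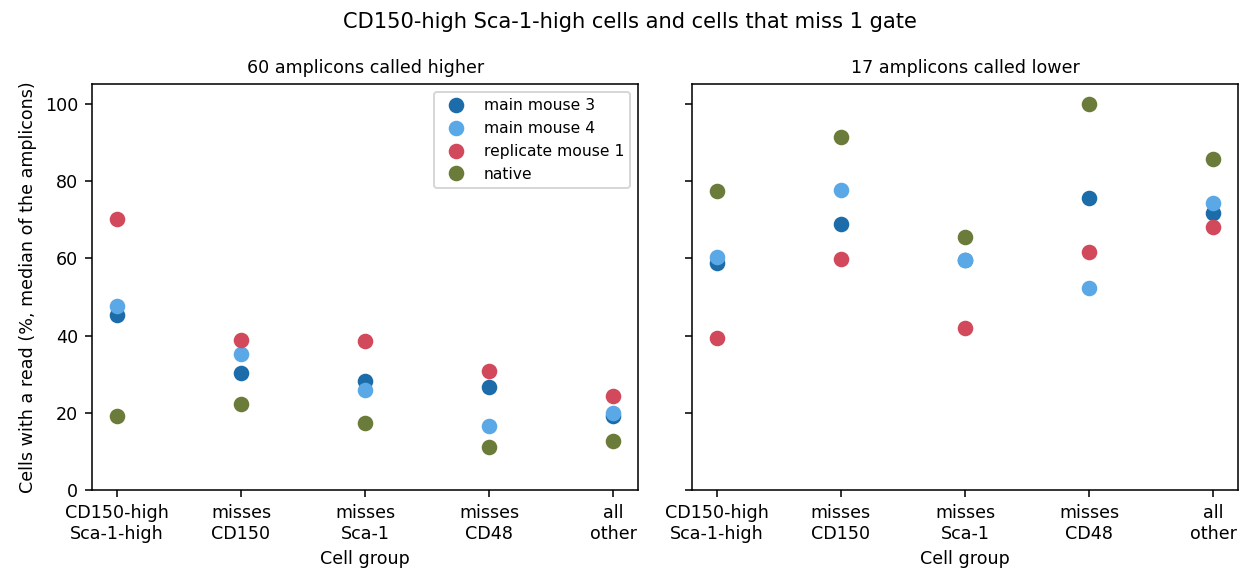
Median share of cells with a read, in percent, over the 60 amplicons called higher (left) and the 17 called lower (right), in the chosen cells, in cells that miss 1 gate and in all other cells, 1 point per library. The chosen cells are highest at the left in the 3 LARRY libraries, and in replicate mouse 1 they are at 70.2% against 24.3% of the other cells.

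Single amplicons gave different orders of the neighbours. AMPL365990, the first of those above, was read in 39.2%, 32.6%, 76.2% and 4.59% of the chosen cells and in 18.4%, 18.5%, 29.2% and 2.88% of cells missing the CD150 gate (1.24 log odds, adjusted p = 0.0273 in edgeR). Cells missing the Sca-1 gate were at 16.5%, 15.0%, 26.3% and 0.845% (1.56 log odds, adjusted p = 0.00311). AMPL366093 and AMPL366028 were the next largest against cells missing the Sca-1 gate, at 1.55 and 1.47 log odds.

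AMPL355560 and AMPL365938 led the comparison with cells missing the CD150 gate. AMPL365938 was read in 70.1%, 60.5%, 71.0% and 31.6% of the chosen cells and in 35.3%, 40.0%, 38.6% and 12.2% of those neighbours (1.24 log odds, adjusted p = 0.0198 in edgeR), so the chosen cells were higher by 0.82 to 1.44 log odds in all 4 libraries. AMPL371265 went the other way, at 60.8%, 69.8%, 43.8% and 78.6% against 80.1%, 85.2%, 79.1% and 96.0% (-1.35 log odds, adjusted p = 0.0198), and AMPL371389 differed by -1.29. The 4 libraries each kept the chosen cells on the same side, as was required for an amplicon to be named.

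Against cells missing only the CD48 gate, AMPL365902, AMPL366066 and AMPL366045 had the largest increases. AMPL366066 was read in 45.4%, 51.2%, 77.1% and 13.3% of the chosen cells and in 9.76%, 9.52%, 7.69% and 0% of those neighbours (adjusted p = 2.04e-06 in edgeR). So small a value rests on the pooling over amplicons, and limma called 0 amplicons in this comparison. The 0% is 0 of 9 native cells. Of the decreases, AMPL388347 was read in 88.7%, 86.0%, 82.9% and 97.4% against 100%, 95.2%, 100% and 100% (adjusted p = 0.0133), and AMPL388402 in 83.5%, 83.7%, 84.8% and 95.9% against 95.1%, 95.2%, 100% and 100% (adjusted p = 0.0422). Where a group is at 0% or 100% the fitted log odds depend on the prior count and are not given. AMPL376501 was also called lower in all 3 neighbour comparisons, by a mean of -9.10, -8.30 and -7.12 percentage points against cells missing the CD48, CD150 and Sca-1 gate. Against cells missing the Sca-1 gate AMPL377174 was lower too, at 71.1%, 83.7%, 68.1% and 86.7% of the chosen cells against 95.2%, 92.5%, 89.9% and 95.8% (-1.45 log odds, adjusted p = 0.00311), and AMPL371271 differed by -0.95 log odds.

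No difference in mean methylation over the CpGs that vary between cells was detected. Over 404 amplicons read in 25% to 90% of marrow cells, the mean share read was 65.2% in the chosen and 63.7% in the other cells of main mouse 3, 68.1% and 64.9% in main mouse 4, 71.6% and 69.7% in replicate mouse 1, and 69.8% and 71.1% in the native library. The mean difference was 1.31 ± 1.90 percentage points (SD, n = 4; exact two-sided permutation test, p = 0.25, smallest possible 0.125). It was 2.20 ± 0.88 points over the 3 LARRY libraries, where an exact permutation test cannot go below p = 0.25 and gave that value. This test cannot reach 0.05 with 4 or 3 libraries, so a difference of the size seen was not detectable.

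Variation between cells gave no common direction either. The share of pairs of chosen cells that differed at one of these amplicons was 38.7% in main mouse 3, 38.5% in main mouse 4, 32.7% in replicate mouse 1 and 34.6% in the native library. Pairs of other cells differed at 38.7%, 38.4%, 35.5% and 32.3%. The mean difference was -0.06 ± 2.07 percentage points (SD, n = 4; exact two-sided permutation test, p = 0.875). Replicate mouse 1 had the most alike chosen cells, and they were more alike than its other cells. In the native library the chosen cells were less alike than the other cells, at 34.6% against 32.3%.

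How alike the chosen cells were was also read from each cell's 10 nearest cells over the 404 amplicons, a description added after the data were seen. Of the nearest cells of a chosen cell, 41.5% were also chosen in replicate mouse 1, where the chosen cells made up 6.77% of eligible cells. The shares were 9.38% in main mouse 3 (3.63% of cells), 5.58% in main mouse 4 (3.20%) and 9.29% in the native library (7.55%). Over the 367 of these amplicons that were not called, they were 34.8%, 6.91%, 4.65% and 8.98%. In replicate mouse 1, 100 of the 210 chosen cells (47.6%) had 5 or more chosen cells among their 10 nearest, against 5 of 97, 0 of 43 and 3 of 196 in main mouse 3, main mouse 4 and the native library. The chosen cells were thus gathered in methylation in replicate mouse 1 and mostly mixed with other cells elsewhere.

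The 60 amplicons were then followed into libraries of mature and endothelial cells from LARRY mice, each a single library, so the values have no replicate check. The median of the 60 was 53.9% in the chosen cells and 21.7% in the other cells of the LARRY marrow libraries. It was 9.53% in mature myeloid cells of bone marrow and blood, 19.9% in mature myeloid cells of lung, 19.2% in immune cells from marrow and spleen and 87.6% in lung endothelial cells. Over all amplicons tested the medians of these 4 libraries were 63.8%, 64.0%, 73.2% and 70.3%. Of the 60, 52 were above the LARRY other cells in endothelial cells (86.7%, against 48.6% of all tested) and 55 were below them in the myeloid cells of bone marrow and blood (91.7%, against 66.6%). Much of the latter gap was shared by amplicons of a like low level. Among amplicons read in under 25% of other cells, 94.6% of the 37 called higher and 84.6% of the 52 not called were below in those myeloid cells. Depth also differed. Median reads per cell were 24569, 14693, 23575 and 28223.5 in these 4 libraries, in the order above. They were 45003.5, 61981 and 60095 in main mouse 3, main mouse 4 and replicate mouse 1. The part of depth in these shares was not tested.

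Amplicons of a like low starting level differed in endothelial cells by whether they were called. Among the 89 amplicons under 25% of other cells, the 37 called higher had a median of 83.9% in endothelial cells and the 52 not called a median of 16.9%. Under 20% in endothelial cells were 9 of the 60, a share near that of all amplicons tested (100 of 595). Those 9 included 3 of the amplicons named above. AMPL365990, AMPL365902 and AMPL366066 were read in 2.00%, 4.64% and 2.41% of endothelial cells. Each of those 3 was read in a larger share of the chosen cells in every LARRY marrow library than of endothelial cells. AMPL366093 and AMPL355412 were at 95.6% and 96.8% in endothelial cells.

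Endothelial cells express ESAM and Sca-1, so their marks were looked up in the chosen cells. The 2 amplicons were picked by a rule set after the data were seen. It asked for over 75% of endothelial and under 10% of other cells in every LARRY marrow library, or under 10% and over 90%. AMPL388255, read in 97.8% of lung endothelial cells, was read in 6.19%, 13.95%, 4.29% and 2.55% of the chosen cells of main mouse 3, main mouse 4, replicate mouse 1 and the native library, and in 4.19%, 4.16%, 3.56% and 1.29% of the others. In counts these were 6 of 97, 6 of 43, 9 of 210 and 5 of 196 chosen cells. AMPL376948, read in 5.39% of endothelial cells, was read in 93.8%, 88.4%, 96.2% and 94.9% of the chosen cells. At these 2 amplicons most of the chosen cells were on the side of the other cells. In each library their share was nevertheless nearer the endothelial one than that of the other cells, most so in main mouse 4. Whether some of the chosen cells were endothelial was not tested.

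The 17 amplicons called lower showed another profile. In the immune cells from marrow and spleen 16 of the 17 were above the LARRY other cells, by a median of 15.0 percentage points, against 58.2% of all amplicons tested. In mature myeloid cells of bone marrow and blood 13 of 17 were above them, by a median of 6.28 points, against 33.4% of all tested. In endothelial cells 8 of 17 were above. In mature myeloid cells of lung 8 of 17 were above and 9 below.

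**Figure D5:**
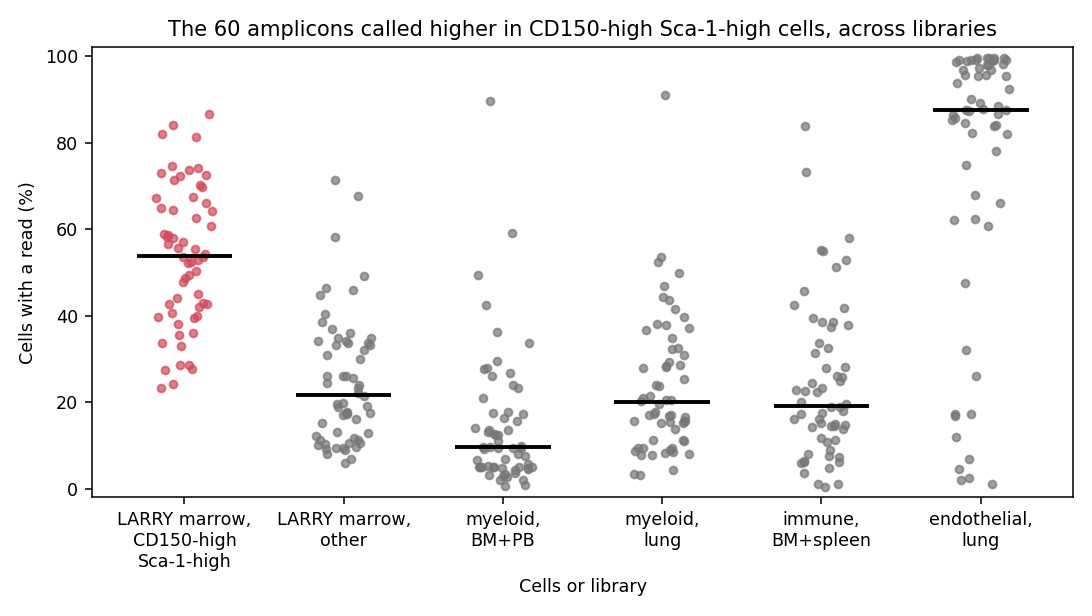
Share of cells with a read, in percent, for the 60 amplicons called higher, 1 point per amplicon, in the chosen and other cells of the 3 LARRY marrow libraries (mean) and in 4 single libraries of mature or endothelial cells. Black bars are medians: 53.9%, 21.7%, 9.53%, 19.9%, 19.2% and 87.6% from left to right.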

How the data were processed

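The authors deposited read counts per cell and amplicon and UMI counts per cell and antibody tag, not normalized, per the file headers and the labels' protocols (scTAM-seq on the Tapestri platform). Per the submitters' processing notes, reads were placed on mm10. No source used here names the aligner, how cells were called or how they were filtered. Doublets were not called.

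The members and lists were chosen with earlier results of these data known. The main test used edgeR 4.0.16 (R 4.3.3) on the cells per library and cell group that had an amplicon or lacked it, for amplicons whose mean share lay between 2% and 98%, with library terms on the log odds and Benjamini-Hochberg adjustment. The cell groups of a library share its animal, which makes them pairs. Named amplicons were the 10 called with the highest and the 10 with the lowest log odds of the same sign in 4 libraries, and 3 and 3 for each neighbour comparison. Proteins named were those on lists of cell type markers. Amplicons that 90% or more of the cells had in every library served as the measure of read-out. Single values were compared with exact permutation tests.

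Alternatives were limma 3.58.1, other read and UMI minimums, cells thinned to 20000 reads, other cells matched on reads and tag UMIs, other gates and centring, cells left out, and libraries left out. A fit without the cells with most tag UMIs, one without main mouse 4 and the native library together, and the interaction were added after the data were seen. With simulated SDs between libraries of 0.15 and 0.3 log odds, edgeR called 97.8% and 90.7% of amplicons changed by 1 in the comparison with other cells (597 and 596 amplicons), and 2 of 418 and 6 of 417 unchanged ones. The top amplicons of the data spread more: the log odds of AMPL365990 were 1.90, 1.73, 3.12 and 0.64 in the 4 libraries. The simulated shares do not cover a spread of that size.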

Additional observations from a re-analysis of the deposited data

Results flagged for a closer look

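The mean share of the 404 varying amplicons, chosen minus other cells, was -1.33 percentage points in the native library. It was 1.497, 3.18 and 1.90 points in main mouse 3, main mouse 4 and replicate mouse 1, so the sign was opposite in the 2 kinds of library. The difference between them was not tested. The chosen cells of the native library also had more tag UMIs (431 against 179) and more CD48 UMIs (238 against 142) than the other cells, and the part of these in the result was not tested.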

How the results depend on the processing

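The counts of amplicons higher and lower than in other cells, 60 and 17, became 0 and 0 with no minimum of tag UMIs, 94 and 29 with uncentred tags, 100 and 40 when centred over the 4 shared tags, 31 and 11 without the 5% of cells with most amplicons, 0 and 0 with no replicate block (64 at an unadjusted p under 0.05 in edgeR), 32 and 11 in limma, and 108 and 39 without main mouse 4 and the native library together. The lower count was 26 with at least 200 tag UMIs and 9 without the cells with most tag UMIs. Leaving out 1 library gave 0 to 108 higher and 0 to 33 lower. With 200 tag UMIs 63.9% of calls were higher, against 77.9%. In every setting run, all 60 and all 17 kept their direction, and none of the named amplicons reversed: 427 of 620 such values stayed on their side of the threshold and 193 lost it. The settings share cells with the calls, so the kept direction is a description.

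Against cells missing the CD48 gate the count of 55 was 5 with shared tags, 0 with no replicate block, 0 in limma and 17 to 74 with 1 library left out. At 200 tag UMIs the native library, with no such cell, dropped out of that fit. Against cells missing the CD150 gate 42 became 114, 0, 0 and 0 to 66 in the same order. Without replicate mouse 1 it was 5. Against cells missing the Sca-1 gate 50 became 129, 0, 17 and 0 to 96, and 5 with 200 tag UMIs. The cause was not tested.

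The mean share difference was -0.244 points with no minimum of tag UMIs. The difference in spread between cells, -0.06 points, changed sign at calls of 2, 5 or 10 reads (8.96e-05, 0.0835 and 0.0988), thinned (0.247) or matched (0.374), at 200 tag UMIs (0.0686), with no minimum (0.485), uncentred (1.00) or shared tags (1.66), no CD48 gate (0.544) and without the cells with most amplicons (0.521). With 1 library left out it ran from -0.857 to 0.825, the last without replicate mouse 1. The 43 chosen cells of main mouse 4 and the 9 native cells missing the CD48 gate set the coarsest shares.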

Other observations

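The 60 amplicons methylated in more CD150-high Sca-1-high cells were also looked up in the bone marrow libraries of young and old native mice, which have no tag counts here. Their median share of cells with a read was 20.4% and 25.3% in the 2 young libraries, 24.1% and 38.5% in the 2 old libraries and 16.2% in the transplantation library. The mean of the old libraries was above that of the young ones for 48 of the 60 (80%, against 62.9% of all amplicons tested), and both old libraries were above both young ones for 21 (35%, against 24.4%). Among amplicons read in under 25% of other cells, these shares were 83.8% and 43.2% of the 37 called higher. They were 73.1% and 32.7% of the 52 not called. For the 17 methylated in fewer of these cells, 12 were lower in the old mean (70.6%, against 37.1% of all amplicons tested), and 8 without overlap (47.1%, against 18.7%). AMPL365990 was read in 9.48% and 10.1% of cells of the young libraries and 16.8% and 38.1% of the old ones. AMPL376501 was at 98.7% and 98.9% in the young libraries and at 96.0% and 92.1% in the old. The second old library held the more extreme value of each pair. It was also read more deeply, at a median of 50356 reads per cell against 29540 in the first old library. The young libraries were at 28568.5 and 27421, and the part of depth was not tested. These values have no test, and the share of CD150-high Sca-1-high cells in these libraries was not measured.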
